A study of Mus musculus with 310 samples.

Results

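The cells described here are keratinocytes whose summed signal of 4 genes, Krt14, Krt5, Ly6a and Tgfbi, was higher than that of any of 5 other marker sets, and they are called BAS cells below. Each of the 310 sequenced cells was scaled to 10000 reads, log-transformed and z-scored per gene over all cells, and it was placed in the set of 4 genes with the highest mean z-score. The other sets marked differentiated cells of the infundibulum and duct (INF), bulge (BUL), sebaceous gland (SEB), differentiated interfollicular epidermis (IFD) and junctional zone (JZ). In this way 66 of 310 cells (21.3%) were BAS cells, beside 62 INF, 57 BUL, 33 SEB, 48 IFD and 44 JZ cells. The members were therefore selected on measured expression of these genes, and their contrast with the other cells is given as a description, with no test.

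Basal keratinocytes sit on the basement membrane, to which they are fixed by hemidesmosomes, and they express the paired filament proteins Krt5 and Krt14. As cells leave this layer they turn these genes down and switch to Krt1 and Krt10. Lrig1 marks stem cells of the upper hair follicle, whose descendants can be followed with an inherited fluorescent label, and the study named a group of such descendants, with basal, migratory and metabolic genes, its Transition Cluster.

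All cells came from the tail epidermis of mice that carried Lrig1-EGFP-ires-CreERT2 and Rosa26-fl/STOP/fl-tdTomato on a mixed CBA and C57BL/6 background. Every mouse had been given hydroxytamoxifen once on the tail skin, and tomato-positive cells were sorted, so the label reports descent from a cell in which the Lrig1 locus drove Cre and not present Lrig1 expression. The labels give 2 groups at 38 weeks, named 38w (replicates RepI and RepL, 145 cells) and 38wUW (RepM and RepN, 165 cells). The design compares repaired skin with skin of an age control, but the labels do not spell out which of these each name stands for, so that all differences are given as 38w against 38wUW. The replicates were spread over plates C114 and C118 (RepI), C119 (RepL), C128 (RepM) and C129 (RepN), and the labels do not say whether a replicate was 1 mouse or a pool. Cells had between 11711 and 721564 reads assigned to genes, with a median of 64921 in BAS cells and 61087 in the others.

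Plate C114 stood apart from the rest. Genes of ribosomal proteins took a median of 33.8% of reads in its BAS cells, against 4.37% to 8.26% on the other 4 plates, and mitochondrial genes 3.40%, against 12.3% to 29.9%. The non-member cells of C114 had the same profile, with medians of 28.8% and 2.48%. On C114, 11 wells also occurred under 2 sample names, with and without the suffix IDTILL. In 8 of these 11 wells the partner was the most similar of the cells on the plate, but the pair fell in the same set in 5 of the 11, and the labels do not say whether such pairs are repeat libraries of 1 cell. Of the 13 cells with this suffix, 5 were BAS cells, while none of the samples with the suffix MBULK was. Values without C114 or without the suffixed cells are given where they bear on a result.

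Of the 66 BAS cells, 55 had reads of all 4 genes and 11 of 3 genes, but 49 of the 244 other cells also had reads of all 4. The BAS score of members ran from 0.213 to 2.66 with a median of 0.956, and that of the others from -1.12 to 1.44 with a median of -0.384. Members led their next-best set by a median of 0.685, and 10 of them led by less than 0.25, while 12 other cells came within 0.25 of membership. The 3 cells just inside the limit led by 0.0174, 0.0521 and 0.0601, and the 3 just outside trailed with leads of -0.0184, -0.0296 and -0.0336. The next-best set was JZ in 25 members, IFD in 20, BUL in 12, SEB in 8 and INF in 1. BAS cells thus bordered mainly on the JZ and IFD sets and hardly on the INF set of differentiated cells. This order does not place them in the skin, as the study's infundibulum marker Postn belongs to the BUL set here.

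**Figure D1:**
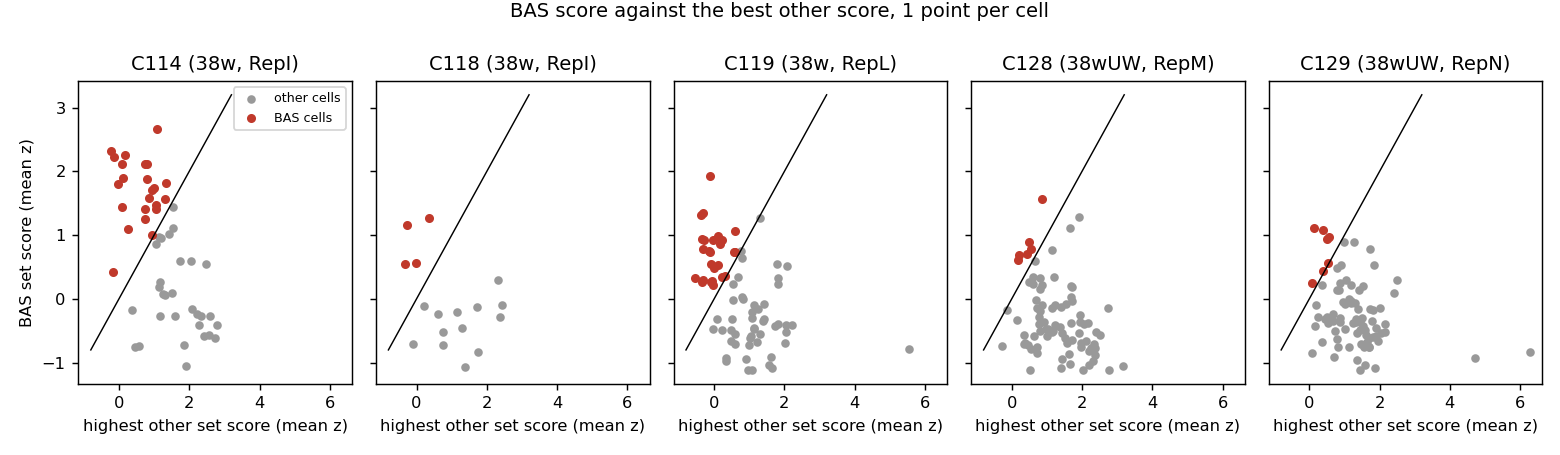
BAS set score (vertical axis, mean z-score of 4 genes) against the highest score among the 5 other sets (horizontal axis, mean z-score), with 1 point per cell and 1 panel per plate. Red points above the diagonal are the 66 BAS cells, 23 of them on C114, 4 on C118, 26 on C119, 6 on C128 and 7 on C129.

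The genes that carry the membership are spread over 3 chromosomes. In the GRCm38 build, Krt14 lies on the minus strand of chromosome 11 (100203162 to 100207548), Krt5 and Ly6a on the minus strand of chromosome 15 (101707070 to 101712898 and 74994877 to 74998031) and Tgfbi on the plus strand of chromosome 13 (56609523 to 56639562). Col17a1, a hemidesmosomal collagen described below, lies on the minus strand of chromosome 19 (47646344 to 47692094). Upstream sequences, from RefSeq (GRCm38.p6), were looked up for the 4 genes of the set and for the 10 highest and 10 lowest of the genes found in at least 50% of BAS cells. Of these 24 genes, 18 had an entry, and in 12 the entry began within 100 bases of the annotated gene start. The 250 bases before the start are shown for the 2 genes of the set among these 12, Krt5 and Tgfbi, and for Col17a1, the gene outside the rule with the largest positive difference. Capitals mark matches, on either strand, to the 4 short motifs of AP-1, AP-2, the GC box and the TATA box, whose letters follow the sequences.
Krt5, minus strand, chr15:101712906-101713155: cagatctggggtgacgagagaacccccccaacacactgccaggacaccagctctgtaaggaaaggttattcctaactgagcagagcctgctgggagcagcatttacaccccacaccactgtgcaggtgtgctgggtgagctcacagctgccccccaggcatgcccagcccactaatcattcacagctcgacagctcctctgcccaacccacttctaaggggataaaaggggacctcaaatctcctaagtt
Tgfbi, plus strand, chr13:56609336-56609585: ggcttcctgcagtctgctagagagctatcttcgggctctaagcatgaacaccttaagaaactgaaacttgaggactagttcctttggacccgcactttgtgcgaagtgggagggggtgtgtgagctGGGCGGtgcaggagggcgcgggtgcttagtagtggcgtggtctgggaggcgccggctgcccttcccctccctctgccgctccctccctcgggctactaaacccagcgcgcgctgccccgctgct
Col17a1, minus strand, chr19:47692043-47692292: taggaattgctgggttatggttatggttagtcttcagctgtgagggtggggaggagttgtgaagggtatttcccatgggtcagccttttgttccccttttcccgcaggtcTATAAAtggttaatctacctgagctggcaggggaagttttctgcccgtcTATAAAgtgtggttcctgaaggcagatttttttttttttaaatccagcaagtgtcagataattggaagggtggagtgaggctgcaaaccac
The Krt5 window held none of the 4 motifs, the Tgfbi window 1 GC box that began 124 bases before RefSeq's start, and the Col17a1 window 2 TATA boxes, 140 and 91 bases before it. Among 32851 upstream windows of the same length, the AP-1 letters TGANTCA were found in 6.75%. The AP-2 letters GCCNNNGGC were found in 13.7% of these windows. The GC box, written GGGCGG, was found in 32.7% of them. The TATA box, written TATAAA, was found in 12.4%. Of the 12 windows with a matching start, 1 held the AP-1 letters, 2 the AP-2 letters, 6 the GC box and 4 the TATA box. A match describes these letters and is not a binding site.

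Krt14, the type I keratin of the basal layer, was read in all 66 BAS cells. Levels are given as CPM, the reads of a gene after scaling the summed reads of the cells to a common total. Krt14 stood at 38766 and 8366 CPM in the BAS cells of RepI and RepL and at 13092 and 1811 in those of RepM and RepN, so that the groups overlapped. In the other cells of the same replicates Krt14 stood at 6190, 1897, 1365 and 734 CPM. The high level of RepI came from C114, where Krt14 reached 42947 CPM in BAS cells, against 3045 on C118. Krt5, its type II partner, was also read in all 66 and stood at 4042, 1737, 2785 and 639 CPM in the BAS cells of RepI, RepL, RepM and RepN. Krt5 in the other cells was flatter, at 548, 422, 337 and 386 CPM.

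Ly6a, which encodes the surface protein Sca-1, was less even than the keratins. It was read in 57 of 66 BAS cells and in 68 of 244 others, at 1127 and 187 CPM in RepI and RepL and 305 and 736 CPM in RepM and RepN. All 27 BAS cells of RepI had reads of Ly6a, but 20 of 26 of RepL, 4 of 6 of RepM and 6 of 7 of RepN did. Tgfbi, a secreted matrix protein induced by TGF-beta, was read in 64 of 66 BAS cells and was the most even of the 4, at 504, 379, 648 and 598 CPM over RepI, RepL, RepM and RepN. This evenness leans on single cells, as a single cell gave 82.1% of the Tgfbi reads of RepM and 56.2% of those of RepN. For Ly6a a single cell gave 68.3% and 75.6% of the reads there. Ly6a was the gene with the highest z-score in 25 members, Krt5 in 16, Tgfbi in 15 and Krt14 in 10. Over the 66 members, Krt14 and Krt5 varied together (Spearman's rho 0.889), whereas Tgfbi and Krt14 hardly did (rho 0.143); these cells share plates and differ in depth, and within C114 the 2 values were 0.583 and -0.0464. The members were therefore not uniform in what placed them in the set, with all 4 genes above the mean of all cells in 42 members, 3 of them in 21 and 2 in 3.

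**Figure D2:**
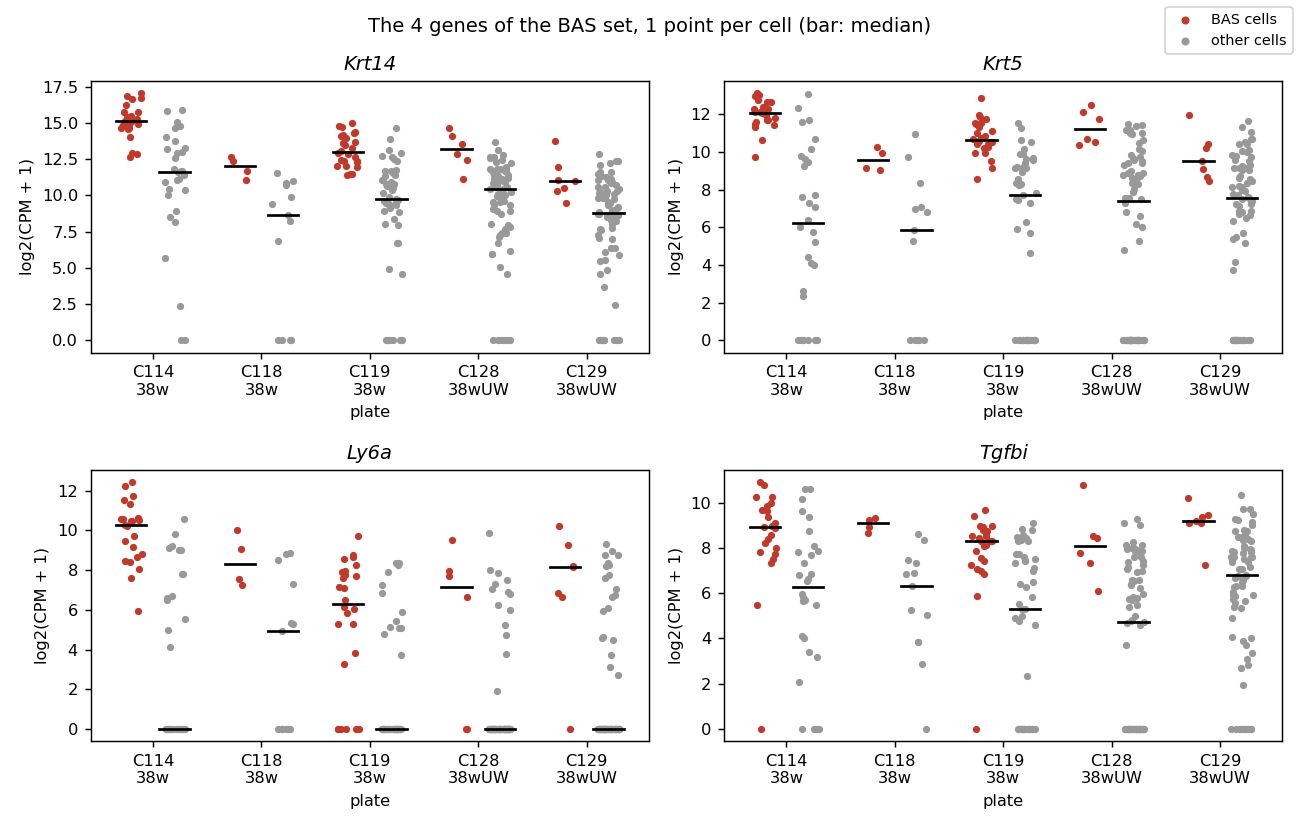
The 4 genes of the BAS set on a log2(CPM + 1) scale (vertical axis), with 1 point per cell for BAS cells (red) and other cells (grey) on each plate, and the median as a black bar. All 66 members have Krt14 and Krt5 reads, while Ly6a is at 0 in 9 members and Tgfbi in 2.

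To ask whether these cells were equally common in both groups, the share of BAS cells was taken per replicate. Among 38w replicates it was 38.6% for RepI (27 of 70 cells, 95% Wilson interval 28.0 to 50.3) and 34.7% for RepL (26 of 75, 24.9 to 45.9). Among 38wUW replicates it was 7.32% for RepM (6 of 82, 3.40 to 15.1) and 8.43% for RepN (7 of 83, 4.15 to 16.4). Both 38w replicates were higher than both 38wUW replicates, with means of 36.6% ± 2.76 and 7.88% ± 0.790 (SD, n = 2 each). The difference of 28.7 percentage points had p = 0.333 in a two-sided exact permutation test, which is the smallest value that 2 against 2 replicates allow. The intervals cover counting error only. Each of the 5 other sets also differed without overlap of replicates. IFD cells were more common in 38w (24.1% against 7.89%). Less common there were JZ (6.95% against 20.6%), BUL (10.9% against 24.8%), INF (13.9% against 25.5%) and SEB cells (7.52% against 13.3%). The shares of a replicate are parts of the same total, so they do not vary independently.

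By plate the shares were 43.4% on C114, 23.5% on C118, 34.7% on C119, 7.32% on C128 and 8.43% on C129, so that each 38w plate was above each 38wUW plate. The labels carry 2 batch tags that disagree on C128 and C129. Within the first tag the difference was 20.7 points for Replicate1 and 36.1 for Replicate2, and within the second 21.8 and 35.0. The size of the difference depended on how genes were scaled. When z-scores were taken within each plate, which removes plate differences in the genes themselves, it was 12.98 points, with 24.3% to 32.0% in the 38w replicates and 13.3% to 17.1% in the 38wUW replicates. Without C114 it was 21.2 points and without all suffixed cells 30.3. Plate and replicate coincide for RepL, RepM and RepN and cannot be told apart there.

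**Figure D3:**
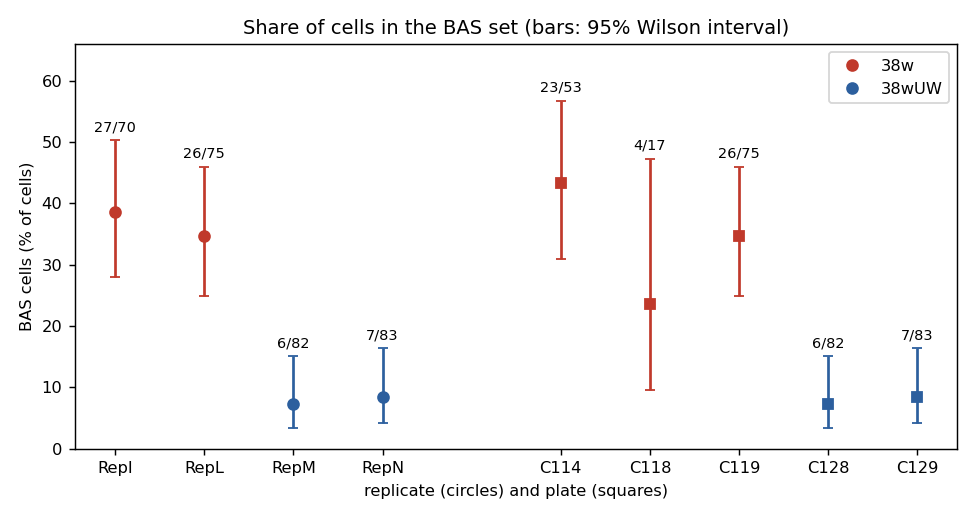
Share of cells that fell in the BAS set (vertical axis, percent of cells) in each replicate (circles) and plate (squares), with 95% Wilson intervals as bars and the counts above them; red is 38w and blue 38wUW. The 38w replicates lie at 38.6% and 34.7%, and the 38wUW replicates at 7.32% and 8.43%.

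The label of these cells was then checked against genes that the rule did not use, as a difference of mean log2(CPM + 1) between BAS and other cells on each of the 4 plates with at least 5 of both (C114, C119, C128 and C129). Of 2100 genes found in at least 50% of BAS cells, 459 were higher on all 4 plates (21.9%) and 136 lower (6.48%). This filter admits genes by their detection in BAS cells and so favours higher ones. A wider set held 9845 genes found in at least 10% of BAS cells or at least 10% of the other cells. They are called genes found in at least 10% of cells below, although detection in either class alone can admit a gene. Of them, 955 were higher (9.70%) and 1384 lower (14.1%). The leading gene was Col17a1, a collagen that spans the membrane in hemidesmosomes, with mean log2 levels of 9.90, 9.61, 10.1 and 9.30 in BAS cells of C114, C119, C128 and C129 and 5.53, 5.85, 5.40 and 6.45 in the others. Its mean difference was 3.92 ± 0.817 (SD over 4 plates). The next were Hmgn2 (a nucleosome-binding protein, 3.87 ± 0.370), Ifitm3 (an interferon-induced membrane protein, 3.69 ± 1.49), Psat1 (an enzyme of serine synthesis, 3.55 ± 1.69) and Slc6a6 (the taurine transporter, 3.46 ± 0.858). They were followed by Fam162a (3.45 ± 0.276), Fth1 (ferritin heavy chain, 3.43 ± 0.728), Sparc (a matrix-binding protein, 3.36 ± 1.58) and Tspo (a mitochondrial membrane protein, 3.29 ± 0.977). Differences are of log2(CPM + 1) averaged over single cells, so cells without a read weigh heavily and the values are not fold changes of summed levels. Summed Col17a1 stood at 963, 1034, 1136 and 501 CPM in BAS cells of RepI, RepL, RepM and RepN. In the other cells it stood at 363, 291, 242 and 367 CPM.

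Among genes found in at least 50% of BAS cells, Fos, an AP-1 transcription factor, was lowest against the others, by -2.69 ± 1.5. It was followed by Macf1 (a cytoskeletal linker, -2.51 ± 0.921), Itprid2 (-2.39 ± 1.55), B2m (the light chain of MHC class I, -2.31 ± 1.51), Lratd1 (-2.25 ± 0.714), Afdn (a junction protein, -2.06 ± 0.471), Calml3 (a calmodulin-like protein of epithelia, -2.02 ± 0.985), Vmn2r53 (-1.91 ± 0.642), Tmem45a (-1.87 ± 1.14) and Pon2 (-1.81 ± 1.51). Genes that most other cells expressed and few BAS cells did were picked after their values were seen. Sox9, a transcription factor of the follicle, was read in 24.2% of BAS cells and 76.2% of others (-3.57 ± 1.33), and Efnb2, an ephrin ligand, in 21.2% and 75.0% (-4.07 ± 1.68). Leaving out the suffixed cells gave 439 of 2061 genes higher on every plate, and leaving out C114 gave 470 higher and 225 lower of 1917 on 3 plates.

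**Figure D4:**
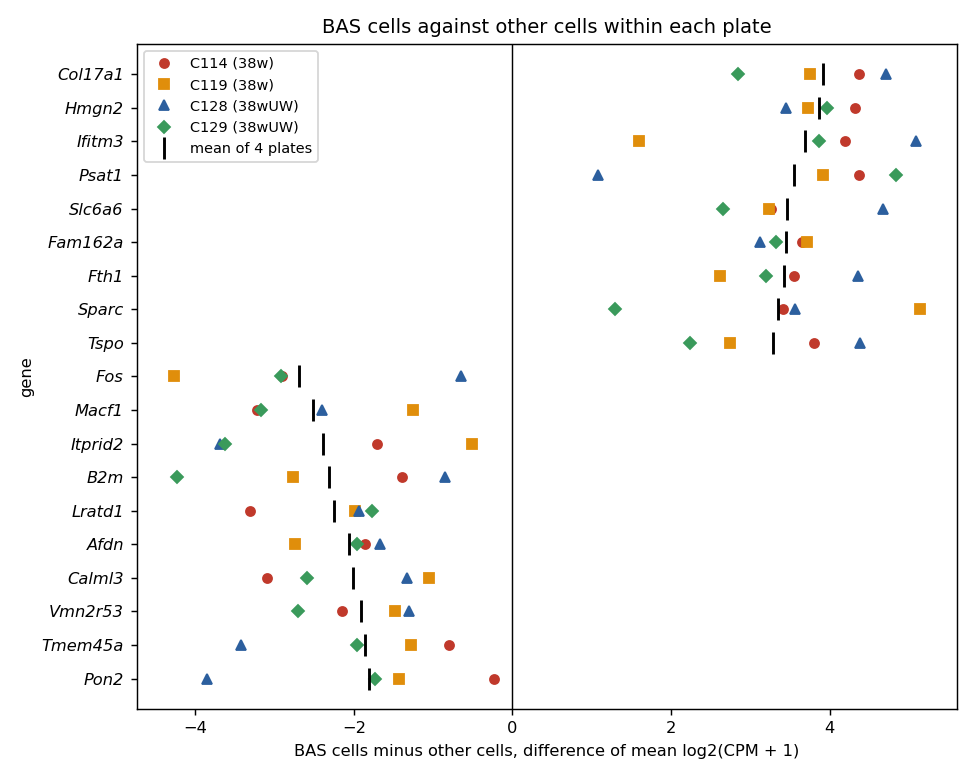
BAS cells minus other cells, as the difference of mean log2(CPM + 1) (horizontal axis), for 9 of the 10 highest and the 10 lowest genes outside the rule (vertical axis). Coloured symbols are the 4 plates and black ticks their mean, which runs from 3.92 for Col17a1 down to -2.69 for Fos among the lower genes.

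The genes that anchor cells to the basement membrane were higher in BAS cells nearly throughout. Of the 15 measured, 12 were higher on all 4 plates and none was lower on all 4, with a median difference of 2.08, against 9.70% higher and 14.1% lower of 9845 genes found in at least 10% of cells, whose median was -0.04. Beside Col17a1 they included Dst, the plakin BP230 (1.65 ± 0.427), Itgb1 (2.08 ± 0.772) and Itgb4, the integrin subunit of hemidesmosomes (2.44 ± 1.20). Itga6, the partner of Itgb4, was higher on 3 plates and lower on 1 (2.18 ± 1.52). The summed level of these genes had a median of 2766 CPM in BAS cells and 1156 in the others. Col17a1 was read in every BAS cell, at 963 and 1034 CPM in RepI and RepL and at 1136 and 501 CPM in RepM and RepN.

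Of 13 regulators of basal keratinocytes, 7 were higher on every plate and 2 lower (53.8% and 15.4%). The counts of this paragraph are to be read against all genes found in at least 10% of cells, of which 9.70% were higher and 14.1% lower. Higher ones were Ccnd2 (a G1 cyclin, 2.36 ± 0.492), Ccnd1 (1.80 ± 1.32) and Trp63, the transcription factor that defines stratified epithelia (1.14 ± 0.366), whereas Id3, a repressor of bHLH factors, was higher on 3 of 4 (0.98 ± 2.04). Genes of suprabasal and granular differentiation went the other way in most cases, with 8 of 13 lower on every plate and 3 higher and a median of -0.947. Their summed level did not follow this count, with medians of 2191 CPM in BAS cells and 1999 in the others over all plates, higher in BAS cells on C119 and C129 and lower on the other plates. Of the genes with the most reads, Krtdap (1.03 ± 0.954) and the metallothionein Mt4 (1.81 ± 0.651) were higher on all 4 plates, whereas Dmkn (0.02 ± 1.67) and the desmosomal cadherin Dsg1a (-1.76 ± 1.88) were lower on 3 of 4. Wound-induced keratins and alarmins showed no common direction, with 1 of 5 higher and 1 lower on every plate, and Krt6a, a keratin of wound edges and follicles, was read in 43.9% of BAS cells and 32.8% of the others (-0.22 ± 2.23).

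The 100 genes that the study listed for its Transition Cluster were made from younger cells that are not among these samples. The list shares genes with the marker sets that chose the members, so it is not independent of that choice. Without the shared genes 96 were left, and 92 of these were found in at least 10% of cells. Of the 92, 51 (55.4%) were higher on every plate in BAS cells and 2 (2.17%) were lower, with a median of 1.19. Over all genes found in at least 10% of cells, these shares were 9.70% and 14.1%. The 4 with the most reads were H2az1, a histone variant (1.94 ± 1.02), Txn1, thioredoxin (0.95 ± 0.599), Hmgn2 and Fth1. Per cell, their summed reads had a median of 29900 CPM in BAS cells of C114, 25021 on C118, 17097 on C119, 12444 on C128 and 16388 on C129. In the other cells of these plates the medians were 12918, 12686, 6568, 8977 and 9501 CPM. The median was thus higher in BAS cells on each of the 5 plates. The list also holds Col17a1, integrins, glycolysis enzymes and cycle genes of the other lists, so that the counts overlap.

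Of 14 glycolysis enzymes, 6 were higher on every plate and 1 lower (42.9% and 7.14%, against 9.70% and 14.1% of all genes), with a median of 0.742. Ldha, which makes lactate, was read in every BAS cell (2.07 ± 0.647), and Gapdh (1.36 ± 0.645), Eno1 (1.73 ± 0.504) and Pgk1 (1.64 ± 1.99, higher on 3 plates) were the others with the most reads. Among 12 hypoxia genes, 4 were higher and 1 lower on every plate. Slc2a1, the glucose transporter Glut1, was read in 62.1% of BAS cells and 40.2% of others, and Hif1a, the hypoxia-inducible factor, in 66.7% and 53.7% (0.64 ± 0.849). When cells were thinned to 20000 reads, which kept 59 of 66 BAS cells, Slc2a1 was read in 12 of 27 (44.4%) in RepI, against 10 of 41 (24.4%) other cells there. After thinning, Hif1a was read in 40.7%, 56.5%, 66.7% and 16.7% of BAS cells of RepI, RepL, RepM and RepN. In the other cells these shares were 36.6%, 57.4%, 49.2% and 34.8%, so that Hif1a had no common direction. The thinned shares of RepM and RepN rest on 3 and 6 BAS cells. C114 ran at a higher summed level of glycolysis genes in both classes, with medians of 6101 and 3120 CPM, against 2579 and 658 on C119.

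AP-1 and immediate early genes, which turn on within minutes of a stimulus, were lower in BAS cells in most cases. None of 16 was higher on every plate, 9 (56.25%) were lower on every plate, and the median was -1.53. Over all genes found in at least 10% of cells, 9.70% were higher and 14.1% lower. Beside Fos, the ones with the most reads were Egr1 (-2.01 ± 1.02), Dusp1 (-1.75 ± 1.56, lower on 3 plates) and Junb (-0.90 ± 0.941, lower on 3). Genes of interferon response and antigen presentation were lower on every plate in 5 of 11 and higher in 1, Ifitm3, with H2-K1, an MHC class I heavy chain, at -2.42 ± 0.744 and H2-D1 at -0.25 ± 0.303. Of 13 TGF-beta pathway genes, none was higher on every plate and 2 (15.4%) were lower, which is near the 14.1% of all genes. Heat shock genes split, 2 higher and 2 lower of 11, with Hsp90ab1 (0.80 ± 0.600) and Hspa8 (1.07 ± 0.377) higher and Hspb1 lower (-1.77 ± 1.90). In the Ly6 family, neighbours or relatives of Ly6a, Ly6c1 was higher on every plate (2.70 ± 1.73), Ly6g6c lower (-2.69 ± 1.66), and Ly6d (0.92 ± 0.819) and Ly6e (0.69 ± 1.19) were higher on 3 of 4.

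Cell cycle genes were somewhat higher in BAS cells. Of 13 genes of G2 and M phase, 5 were higher on every plate (38.5%) and none lower (median 0.855). Of 14 S phase genes, 3 were higher (21.4%) and none lower (median 0.520). Over all genes found in at least 10% of cells, 9.70% were higher and 14.1% lower. Mki67, a marker of cycling cells, was read in 37.9% of BAS cells and 14.8% of the others, and Top2a in 28.8% and 20.9%. Mki67 was found in 12 of 27 and 9 of 26 BAS cells of RepI and RepL and in 2 of 6 and 2 of 7 of RepM and RepN. The 4 G2/M genes with the most reads were Hmgb2 (1.17 ± 1.18), Top2a (0.85 ± 0.377), Mki67 (1.83 ± 0.873) and Ccnb2 (0.81 ± 1.45), and those of S phase were Pcna (0.50 ± 0.575), Slbp (0.39 ± 1.73), Rrm1 (0.91 ± 1.45) and Rrm2 (0.51 ± 0.683).

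Markers of other cell types were mostly scarce where they were measured. Many of those listed, such as Cd207, Cd3e, Mlana, Sox10, Cdh5 and Krt20, are not among the 14068 genes and could not be looked at. Among leukocyte markers, Ptprc had reads in 4 BAS cells, Lyz2 in 2 and H2-Aa in none. Of melanocyte markers, Dct had reads in 24 BAS cells and 67 others but only 61.5 reads in all members together, and Pmel and Tyr had reads in 3 and 2. Of fibroblast markers, Col1a1, Col1a2 and Pdgfra each had reads in 1 BAS cell, Lum in 13 and Dcn in 7, with a highest level of 1049 CPM for Dcn. Merkel cell markers Krt8 and Isl1 had reads in 4 and 1. Pecam1 was an exception, with reads in all 66 BAS cells and all 244 others and up to 19120 CPM, while the endothelial genes Kdr and Egfl7 had reads in 2 BAS cells each. Whether the Pecam1 reads were assigned to the right gene was not tested.

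The label of the sort was of descent, and Lrig1 itself was rare in the BAS cells of RepI and RepL but not in those of RepN. It was read in 3 of 27 and 1 of 26 BAS cells of RepI and RepL and in 0 of 6 and 4 of 7 of RepM and RepN, at 20.7, 0.409, 0 and 40.5 CPM. In the other cells Lrig1 was read in 19 of 43, 10 of 49, 38 of 76 and 38 of 76. The 0 of 6 allows a share of up to 50%, so that a difference of RepM from the rest was not detectable.

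To compare the groups within BAS cells, their reads were summed per replicate and fitted with edgeR, from 4007960 and 2446467 reads for RepI and RepL and 206816 and 1085289 for RepM and RepN. The 38wUW sums rest on 6 and 7 cells. None of 7763 genes outside the marker sets passed an adjusted p of 0.05 by edgeR's quasi-likelihood test (0%), 331 had an unadjusted p under 0.05 (4.26%), and DESeq2 called 24, of which 10 were higher and 14 lower in 38w. The replicates of the 2 groups did not overlap in 2157 genes (27.8%), 1341 higher (17.3%) and 816 lower (10.5%) in 38w. The median log2 fold change of all genes was 0.26, or 0.02 without C114, with a common biological coefficient of variation of 1.01. The 10 genes named next by p were not called by edgeR but were each among the DESeq2 calls, with adjusted p from 0.00145 for Krt36 to 0.0308 for Pheta2.

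Among genes higher in the 38w BAS cells, Prss23, a serine protease, and Cd24a, a surface glycoprotein, were found in many cells. Prss23 stood at 43.2 CPM in RepI and 623 in RepL and had no read in RepM or RepN. It was read in 14 of 27 and 14 of 26 BAS cells of 38w and in 0 of 13 of 38wUW, which allows a share of up to 23.1% by 3 counts of the total and 24.7% by the exact binomial bound, and after thinning to 20000 reads in 23 of 50 and 0 of 9. A single cell gave 62.8% of the Prss23 reads of RepL. Its summed level was at least 113-fold higher in 38w, against a floor of 3 reads over the group, with an adjusted p of 0.237 by edgeR and 0.00587 by DESeq2. This bound depends on the replicate, at 18.6-fold from RepI alone and 268-fold from RepL alone. Cd24a stood at 115 and 494 CPM in RepI and RepL, at 0 in RepM and at 0.921 in RepN, and was read in 27 of 53 BAS cells of 38w and 1 of 13 of 38wUW (edgeR log2 fold change 8.64 ± 2.38 (SE), adjusted p = 0.541, and 0.00592 by DESeq2). Prss23 and Cd24a are both on the Transition Cluster list.

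The other 3 of the 5 higher genes with the smallest p rested on few cells. Krt36 and Krt84, hard keratins of the tail scale, were read in 6 and 5 of 53 BAS cells of 38w and in none of 13 of 38wUW. A single cell gave 93.2% of the Krt36 reads in RepI and 99.5% in RepL, and 99.2% and 100% of the Krt84 reads. The adjusted p of Krt36 and Krt84 was 0.237 and 0.541 by edgeR. The other cells had this order too, with Krt36 at 11704 and 2587 CPM in RepI and RepL against 6.27 and 0 in RepM and RepN, and Krt84 at 2844 and 1008 against 0.760 and 0. H2ac24, a histone gene, was read in 13 BAS cells of 38w, with 71.2% of its RepI reads from 1 cell (adjusted p = 0.601 by edgeR).

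The 5 lower genes with the smallest p were each set by single cells. Stard9, Phex and Ppp1r3c had reads in 1 BAS cell of RepM and 1 of RepN and in none of the 53 of 38w, with adjusted p = 0.616 each by edgeR. Pheta2 was read in 1 cell each of RepI, RepM and RepN, and 97.0% of its reads came from 1 cell. Nrep was read in 7 BAS cells, at 0.499 and 1.23 CPM in RepI and RepL and 24.2 and 156 CPM in RepM and RepN, with 94.4% of its reads from 1 cell (adjusted p = 0.9997 by edgeR for Pheta2 and Nrep).

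**Figure D5:**
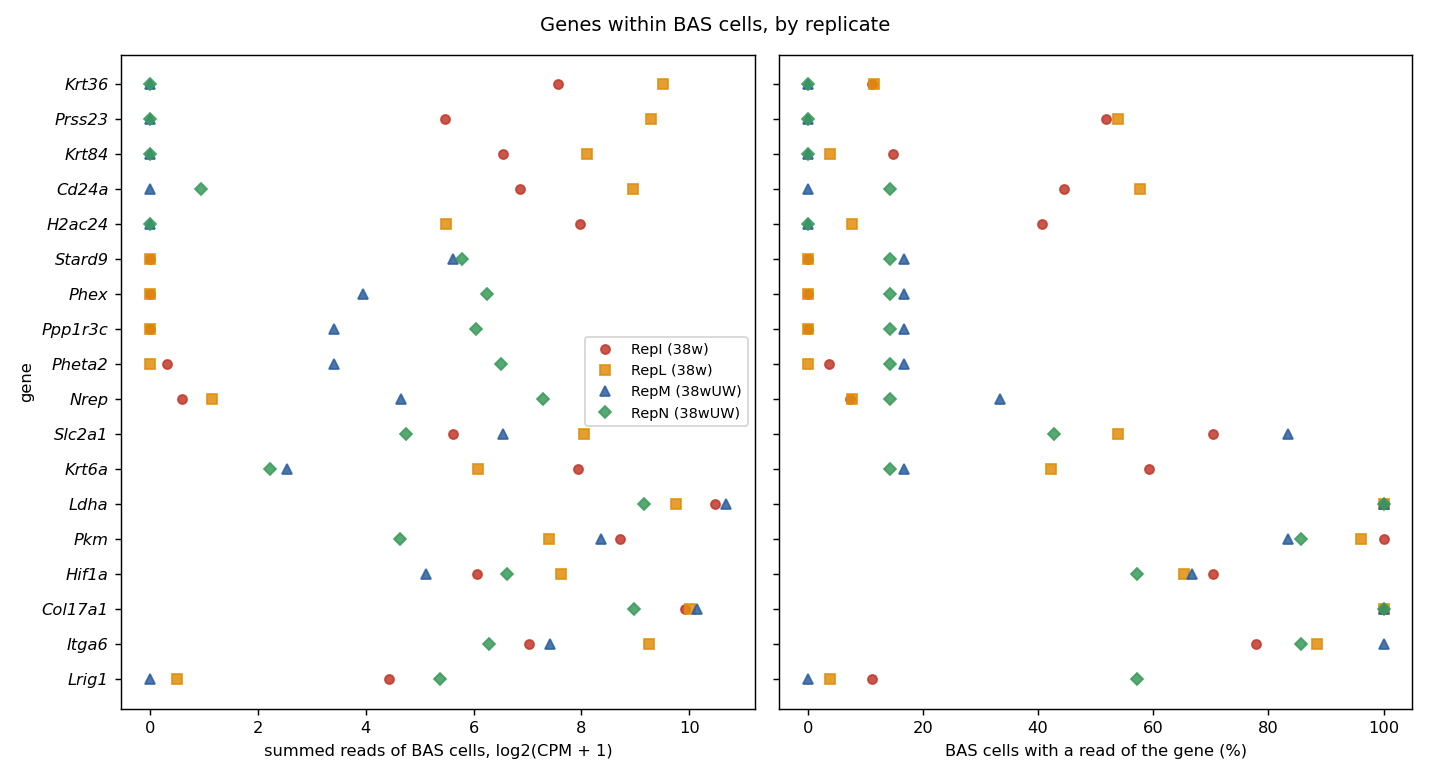
Genes within BAS cells by replicate, with summed reads on a log2(CPM + 1) scale at left and the percent of BAS cells with a read at right (horizontal axes), for the 10 genes named by p and 8 genes fixed by name (vertical axis). Prss23 and Cd24a are read in 44.4% to 57.7% of BAS cells of RepI and RepL, and Krt36 and Krt84 in few cells.

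Genes fixed by name for their part in the study's account of these cells overlapped between groups in most cases. Slc2a1 stood at 48.2 CPM in RepI and 264 in RepL, and at 91.9 in RepM and 25.8 in RepN. Ldha (1421, 865, 1644 and 573 CPM), Pkm (417, 168, 329 and 23.96), Hif1a (65.8, 197, 33.8 and 96.7) and Itga6 (129.2, 611, 169 and 77.4), in the order RepI, RepL, RepM and RepN, likewise overlapped in these values. The overlap rested on small sums or single cells. A single cell gave 75.6% of the RepM reads of Ldha and 80.9% of those of Pkm. For Hif1a a single cell gave 67.3% of the RepI reads and 79.0% of the RepN reads. Slc2a1 and Itga6 had 19 and 35 reads in RepM. Counts of genes without overlap use CPM after edgeR's TMM scaling, under which Itga6 and Col17a1 did not overlap. Krt6a was the exception, at 244 and 66.5 CPM against 4.84 and 3.69, and was read in 27 of 53 BAS cells of 38w and 2 of 13 of 38wUW (edgeR log2 fold change 5.40 ± 2.04 (SE), adjusted p = 0.9997). With members set by z-scores within each plate, this value for Krt6a was 1.12. In the other cells Krt6a did not have this order, at 242 and 408 CPM against 137 and 254. Postn, a matrix protein that the study used as a marker of the infundibulum, belongs to the BUL set and so to the rule. Its values are given as a description. Postn stood at 24.7 and 2.45 CPM in the 38w BAS cells and at 1035 and 2134 in the 38wUW ones. It had reads in 7 of 27, 2 of 26, 5 of 6 and 4 of 7 BAS cells of RepI, RepL, RepM and RepN. In other cells Postn stood at 94.98 and 1331 CPM in 38w and at 682 and 982 in 38wUW.

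By gene list, AP-1 and immediate early genes stood lower in 38w BAS cells. Of 16 tested, 0 were called by edgeR, 11 were lower without overlap of replicates and none higher. Over all genes 10.5% were lower and 17.3% higher without overlap. The median log2 fold change of the 16 was -2.44, against 0.26 for all genes. Fos stood at 148 and 262 CPM in RepI and RepL and at 1789 and 1649 in RepM and RepN, and Egr1 at 34.9 and 58.9 against 440 and 905. In the other cells Fos stood at 950 and 3688 CPM in 38w and 1948 and 2862 in 38wUW, which overlap, while Egr1 kept the order at 262 and 464 against 587 and 1064. The median summed level of the list was 688, 458 and 483 CPM in BAS cells of C114, C118 and C119 and 2998 and 3015 on C128 and C129, and in the others 1329, 1923, 2336, 4603 and 6152.

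Of 13 G2/M genes tested, 6 were higher in 38w without overlap and none lower (median 1.89). Ccnb2 was read in 9 of 27 and 4 of 26 BAS cells of RepI and RepL and 0 of 6 and 1 of 7 of RepM and RepN, but Mki67 (147, 134, 29.0 and 193 CPM over RepI, RepL, RepM and RepN) and Top2a (164, 61.7, 9.67 and 237) overlapped. For S phase genes the median was -0.799, with 2 of 13 lower without overlap. Counts of the lists are to be read against all genes, of which 17.3% were higher and 10.5% lower without overlap. Of 90 Transition Cluster genes, 27 were higher and 6 lower without overlap, with a median of 1.03. For the 15 anchoring genes these counts were 5 and 3 with a median of 0.505, for 13 glycolysis enzymes 1 and 0 (0.743), for 12 hypoxia genes 4 and 0 (1.03) and for 8 suprabasal genes 1 and 0 (1.51). For 13 basal regulators they were 2 and 0 (0.394), for 5 wound keratins and alarmins 2 and 0 (1.51), for 5 Ly6 genes 2 and 0 (1.38), for 9 interferon and antigen presentation genes 2 and 1 (-0.354), for 10 TGF-beta genes 1 and 2 (0.0719) and for 10 heat shock genes 3 and 0 (0.320). edgeR called no gene of any list, and DESeq2 called 3, Prss23 and Cd24a of the Transition Cluster list and Mt4 of the suprabasal list. Mt4 stood at 4563 and 375 CPM in BAS cells of RepI and RepL against 53.2 and 6.45 in RepM and RepN, and at 4531 and 365 against 101.04 and 20.2 in the others.

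Last, it was asked for which genes the difference between groups was not the same in BAS cells and in the other cells of the same replicates. The other cells were a different mix of sets in the 2 groups, as the shares above show. What part this mix had in the results was not tested. Of 11370 genes outside the marker sets, 14 passed an adjusted p of 0.05 by edgeR's quasi-likelihood test (0.123%), all with a more positive 38w difference in BAS cells, while DESeq2 called 43. The call rests on particular replicates: without RepL 0 genes were called, without RepI 2, without RepM 41 and without RepN 40. Prss23 had the smallest p (adjusted p = 2.61e-09 by edgeR). It was read in 2 of 43 and 2 of 49 other cells in RepI and RepL, at 1.75 and 9.54 CPM, and in 9 of 76 and 16 of 76 in RepM and RepN, at 109 and 89.9 CPM, so that its reads lay mainly in BAS cells in 38w and in the other cells in 38wUW. For Cd24a (adjusted p = 0.000171 by edgeR) the other cells stood at 80.1, 98.1, 89.5 and 201 CPM over RepI, RepL, RepM and RepN and varied less than the BAS cells.

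Of the 14 genes, Ccnb2 and Ccnb1 are on the G2/M list. Ccnb2, a cyclin of the G2 to M transition, stood at 317 and 38.0 CPM in BAS cells of RepI and RepL and 0 and 3.69 in RepM and RepN, and in the others at 4.02 and 4.47 against 210 and 21.4 (adjusted p = 0.0009 by edgeR). Ccnb1 stood at 205, 10.6, 14.5 and 2.76 CPM in BAS cells and at 0.700, 3.58, 120.03 and 47.5 in the others over RepI, RepL, RepM and RepN, and 70.9% of its RepI reads in BAS cells came from 1 cell. Sgo2a, which protects sister chromatid cohesion, had 97.9% of its RepI reads in BAS cells from 1 cell. Igfbp3, a binding protein for insulin-like growth factors, was more widespread, in 13 of 27 and 8 of 26 BAS cells of RepI and RepL, against 4 of 43 and 3 of 49 other cells, though 1 cell gave 64.2% and 82.8% of its BAS reads there (adjusted p = 0.0171 by edgeR). Others were Pura, Pex7, Zfp51, Psmg2, Orc4, Vldlr and Foxred2, with adjusted p by edgeR from 0.00432 for Pura to 0.0482 for Foxred2, and 98.9% of the Pura reads in BAS cells of RepL came from 1 cell.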

How the data were processed

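Single cells sorted into plates were processed with a full-length protocol that has no molecular identifiers. Per the labels and the study's methods, the authors estimated counts with Salmon (0.13.1) on an Ensembl transcriptome of mm10/GRCm38 and deposited expected counts per gene, and 3.60% of all values, zeros included, are not whole. Reads of similar genes (Krt14 and other keratins, Ly6a, Krt6a, Hmgn2, Fth1, H2ac24) may be divided between copies. The table holds 14068 genes in 310 cells. Members and gene lists were chosen with earlier results of these data known.

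Cells were assigned by the 6 sets as described. BAS cells and other cells were compared per plate on log2(CPM + 1), with no test. Counts were summed per replicate, rounded, filtered with filterByExpr, scaled by TMM and fitted with edgeR (4.0.16) in R (4.3.3), with Benjamini-Hochberg adjustment, on group for BAS cells and on replicate, class and class by group for both classes. The 24 genes of the sets were left out of calls. The study describes biological replicates for its aged single-cell data, but no labels tie the replicates named here to mice. The p-values therefore measure the spread between these replicates, which may be technical. Scripts were tested on simulated data.

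Genes were named by rule: the 10 highest and 10 lowest with 1 sign on 4 plates found in 50% of BAS cells; in the group comparison, where too few passed, the 5 of smallest p each way at log2 CPM 4 or more on average, without overlap; 9 genes by name; and up to 4 of each list by mean count. Alternatives were DESeq2 (1.42.0), its size factors, no filter, thinning, other member rules, plates, batch tag and each replicate left out; merging same-well samples and leaving out ribosomal and mitochondrial genes were added after seeing the data. Gene positions are from GENCODE. Of the genes these rules name, 2 are not reported here.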

Additional observations from a re-analysis of the deposited data

Results flagged for a closer look

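In 14 genes the group difference in BAS cells differed from that in the other cells by a test of the difference itself (edgeR, adjusted p under 0.05). The log2 difference of differences, 38w minus 38wUW in BAS cells less the same in other cells, was 16.88 for Prss23, 9.21 for Cd24a, 8.98 for Ccnb2, 6.15 for Pura, 7.29 for Pex7, 14.22 for Zfp51 and 11.06 for Sgo2a. It was 6.59 for Psmg2, 8.11 for Igfbp3, 7.57 for Orc4, 9.49 for Vldlr, 8.45 for Ccnb1 and 15.88 for Foxred2. Prss23, Zfp51 and Foxred2 had no read in the 38wUW BAS cells, so their fitted values depend on the prior count; against a floor of 3 reads over the group they were at least 113-fold, 13.1-fold and 13.7-fold higher in 38w BAS cells. From RepI alone these bounds were 18.6-fold, 2.15-fold and 5.80-fold, and 1 cell gave 98.9% of the Zfp51 reads and 98.0% of the Foxred2 reads of RepL. The 38wUW BAS cells are 13 in number, and the part of their small sums in these calls was not tested. The other cells were a different mix of sets in the 2 groups, and the part of this mix was not tested either.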

How the results depend on the processing

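The share of BAS cells was higher in 38w under all 22 alternatives, by 12.98 to 36.1 percentage points, and by 27.2 to 30.9 with each replicate left out. Within BAS cells, edgeR called 0 genes in the main setting and with each replicate left out, DESeq2 called 24 and members by z-scores within each plate gave 2; the cause was not tested. Genes whose group difference differed between BAS and other cells numbered 14, against 43 by DESeq2, 9 with the batch tag as a block and plates as units, 9 with z-scores within each plate, and 0 to 41 with each replicate left out; with z-scores within plates 5 of the 9 were more positive in 38w and 4 less so. No gene among the 14 turned its direction, and of their single values 139 stayed called and 84 did not. Without C114 the log2 fold change within BAS cells turned to -0.35 for Ldha, -0.41 for Pkm and -0.0212 for Col17a1. With each replicate left out it ran from -0.12 to 1.02 for Ldha (also turned without RepN, at -0.00402) and from -5.40 to 7.60 for Lrig1. No paired analysis was possible because the groups share no replicate numbers. The 6 and 7 BAS cells of RepM and RepN limit every comparison within these cells.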
